A study of Mus musculus with 12 samples.

Results

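Islets of Tg7 mice, in which miR-7a2 is overexpressed in the β-cells, were compared with islets of littermate wild-type (Wt) mice at 2 weeks of age (2w). The comparison took in 6 of the 12 bulk RNA-seq libraries of the series, 3 of Tg7 2w and 3 of Wt 2w islets, chosen by their labels alone, and every gene that passed an expression filter. All animals of both groups were male and of the C57BL/6 strain, and the islets were isolated with Liberase on a Histopaque gradient. Each library came from the pooled islets of at least 3 animals, so the p values measure the spread between these pools and not between single mice. Neither the promoter that drives the transgene nor the number of founder lines was stated in the labels or methods used here. The remaining 6 libraries, Tg7 and Wt islets at 12 weeks (12w), shared the estimate of the spread between libraries and were used to ask which effects at 2w differed from those at 12w.

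An islet is a cluster of endocrine cells within the exocrine pancreas. Its β-cells make insulin, and they are surrounded by glucagon-producing α-cells, somatostatin-producing δ-cells and cells that make pancreatic polypeptide (PP), together with endothelial cells, pericytes, fibroblasts and macrophages. A microRNA is a short RNA that guides the Argonaute complex to messenger RNAs, most often through pairing of its seed, bases 2 to 8, with the 3′ UTR. A target paired in this way is usually translated less and degraded faster. In the mouse, 3 loci encode miR-7, and it is among the most abundant microRNAs of endocrine islet cells. The mature sequences of the 2 products are printed here with the seed in capitals, since every site discussed further on is the complement of these bases (RefSeq, GRCm38.p6).

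miR-7a-5p: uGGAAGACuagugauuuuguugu
miR-7b-5p: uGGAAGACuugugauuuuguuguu

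The seed is the same in both, so that a seed match cannot tell miR-7a from miR-7b.

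Reads counted on genes ranged from 12803066 to 17515758 in the Wt and from 13975695 to 16969176 in the Tg7 libraries. The insulin genes Ins1 and Ins2 took 15.4, 10.7 and 10.1% of all counts in the Wt and 2.62, 4.09 and 1.84% in the Tg7 libraries, and counts were therefore scaled with TMM factors, which ranged from 0.968 to 1.19. Levels are given as CPM (counts scaled to a common library total) after this scaling, always in the order of library 1, 2 and 3. Values of 2 libraries correlated at 0.955 to 0.985 within a group and at 0.940 to 0.963 between the groups (Pearson, log2 CPM over all tested genes). The first principal component, 47.4% of the variance, separated the groups, and the second, 20.6%, spread the Tg7 libraries from −48.4 for library 1 through −9.43 for library 2 to 41.3 for library 3. The hormone genes of all 4 endocrine cell types were expressed in every library, and acinar markers were low. Tg7 library 1 held more lymphocyte RNA than the others. Its summed level of 8 T and NK lymphocyte markers was 28.4 CPM against 2.55 to 6.75 CPM in the other 5 libraries, and that of 4 B lymphocyte markers was 23.3 CPM against 2.50 to 5.91 CPM. Counts of Cd3e, a subunit of the T-cell receptor complex named after its values were seen, were 76, 0 and 9 in the Tg7 libraries and 0 in each Wt library.

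Of 15961 genes tested, 1695 (10.6%) passed an adjusted p of 0.05 in edgeR's quasi-likelihood test and are referred to here as called. Of these, 969 were upregulated (6.07% of the genes tested) and 726 downregulated (4.55%) in Tg7 2w islets. All Tg7 libraries lay above or below all Wt libraries for 1660 of the called genes, against 5730 (35.9%) of the genes tested. The median Wt level was 7.72 CPM for the upregulated genes, 68.5 CPM for the downregulated genes and 18.6 CPM for all genes tested. The Wt level is 1 side of the fold change by which genes were called, so this order was in part set by the calling. A log2 fold change of at least 2 in size was estimated for 151 upregulated and 63 downregulated genes. Protein-coding genes made up 1646 of the called genes and lincRNAs 23. The balance of the directions depended on the scaling. With TMM factors 57.2% of the called genes were upregulated, with upper-quartile factors 65.9%, and with library size alone, which moved the median of all genes by 0.17 on the log2 scale, 84.0%. When 1 library was left out, 912, 1036 and 754 genes were called without Wt library 1, 2 and 3, and 1700, 1350 and 1092 without Tg7 library 1, 2 and 3. In all 6 of these fits 660 genes were called, 329 up and 331 down. Below, a gene that was not called in all 6 has that count given beside it, and counts of a group with each library left out in turn are given in the order of Wt library 1, 2 and 3 and Tg7 library 1, 2 and 3.

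**Figure D1:**
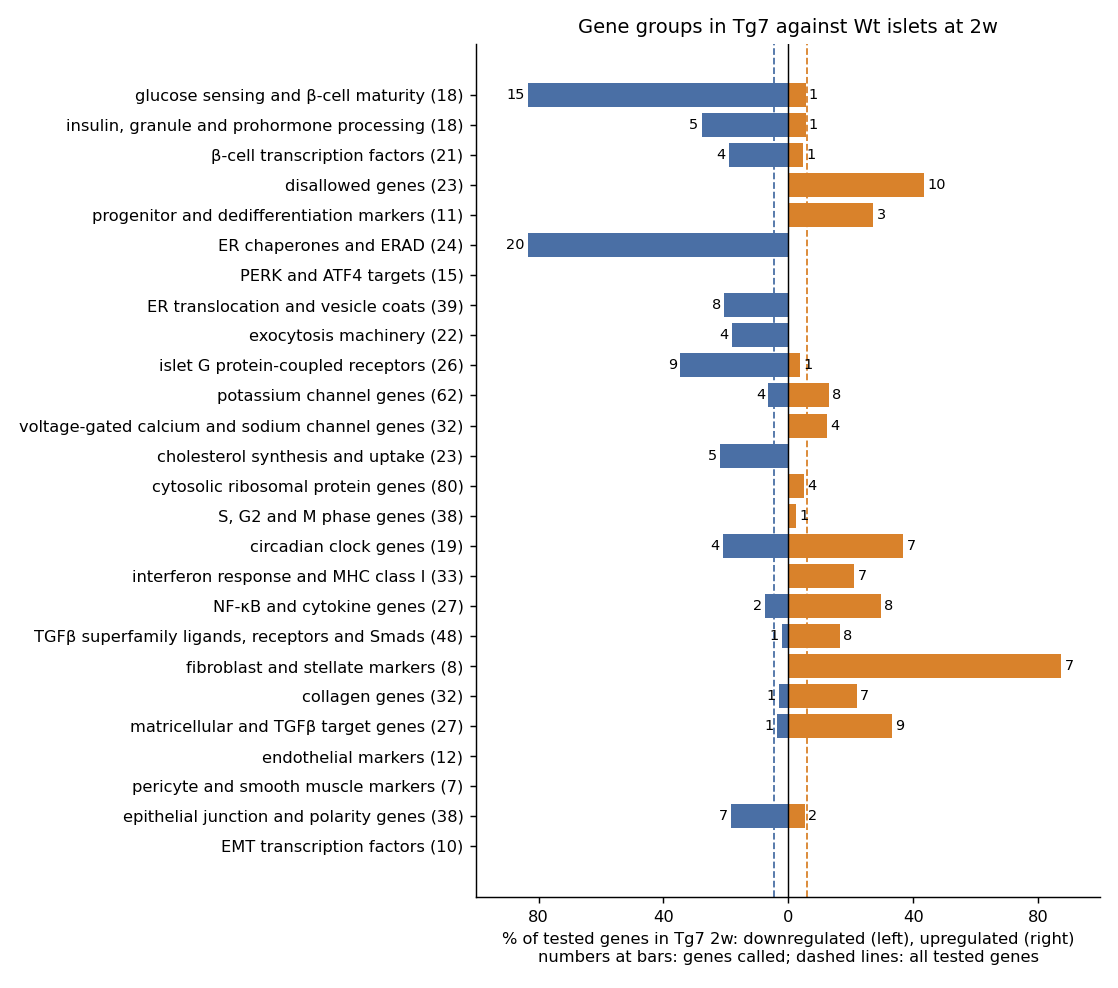
Share of the tested genes of each group that was downregulated (left, blue) or upregulated (right, orange) in Tg7 2w islets, in percent, with the number of tested genes in parentheses and the number called at each bar. Dashed lines mark the share among all tested genes, 4.55% down and 6.07% up. The bars of glucose sensing genes and of ER chaperones reach farthest to the left and that of the fibroblast and stellate markers farthest to the right, while the PERK and ATF4 targets, endothelial and pericyte markers and EMT transcription factors have no bar.

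Of the loci of miR-7 themselves, 1 could be tested and was not called. The libraries were made to measure long RNAs, so the mature microRNA was not measured. Reads on the precursor locus Mir7-1 amounted to 1.25, 0.663 and 1.44 CPM in the Wt and 0.907, 0.585 and 1.49 CPM in the Tg7 libraries, and the groups overlapped (log2 fold change −0.16, SE 0.50, adjusted p = 0.868). Mir7-2 and Mir7b had at most 13 and 10 counts in any 2w library and were not tested. Hnrnpk, whose intron hosts Mir7-1, and the long noncoding RNA 1700020I14Rik (also named Oip5os1 or Cyrano), which promotes decay of miR-7, were not called (log2 fold changes −0.10 and −0.05, adjusted p = 0.805 and 0.854).

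Genes reported as targets of miR-7 in other work were followed one by one, 9 with a role in exocytosis or the cytoskeleton and 21 in transcription and growth signalling. In the first group 3 were downregulated and 1 upregulated (33.3 and 11.1%), and in the second group again 3 and 1 (14.3 and 4.76%). Over all tested genes 4.55% were downregulated and 6.07% upregulated. Phactr1, a regulator of actin and protein phosphatase 1 (ENSMUSG00000054728, chromosome 13, 42775992 to 43233895), had 218, 199 and 205 CPM in the Wt and 66.0, 68.7 and 62.1 CPM in the Tg7 libraries (log2 fold change −1.66, SE 0.12, adjusted p = 2.62e-06). Its 3 Tg7 values lay close together and far below the Wt values. Prkcb, a protein kinase C, had 76.5, 79.1 and 69.7 CPM in the Wt and 32.4, 27.7 and 28.7 CPM in the Tg7 libraries and likewise no overlap (log2 fold change −1.34, SE 0.22, adjusted p = 0.0017). Dnajc5, the cysteine string protein of secretory vesicles, fell by less, from 140.0, 152 and 156 to 119, 103 and 114 CPM, and was called in only 1 of the 6 fits (log2 fold change −0.42, SE 0.12, adjusted p = 0.0353). Basp1, a membrane protein of the growing neurite, was upregulated (log2 fold change 0.80, SE 0.19, adjusted p = 0.0182, called in 3 of 6). The SNARE regulator Cplx1, with a seed match, was expressed at a low level, 2.02, 1.25 and 1.38 CPM in Wt islets, and was not called (adjusted p = 0.945).

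In the second group the downregulated genes belonged to growth factor signalling and to the proteasome. Igf1r, the receptor of insulin-like growth factor 1 (ENSMUSG00000005533, chromosome 7, 75097713 to 75371484), had 90.4, 98.0 and 95.6 CPM in the Wt and 47.2, 26.4 and 32.5 CPM in the Tg7 libraries (log2 fold change −1.42, SE 0.31, adjusted p = 0.00959). Irs1, the adaptor that relays its signal, went from 35.3, 34.8 and 32.5 to 20.4, 17.3 and 16.1 CPM (log2 fold change −0.93, SE 0.16, adjusted p = 0.00276). Psme3, the γ subunit of the proteasome activator, went from 69.5, 68.1 and 70.1 to 47.5, 39.8 and 47.8 CPM (log2 fold change −0.62, SE 0.12, adjusted p = 0.00612). In none of these 3 did a Tg7 library reach the lowest Wt library. The kinase Pak1 was upregulated but its groups overlapped (log2 fold change 0.73, SE 0.20, adjusted p = 0.0322, called in 2 of 6). The remaining 17 genes were not called. They include Rela and Rps6kb1, with log2 fold changes of −0.03 and −0.12 (SE 0.11 and 0.14, where Rps6kb1 shares exonic sequence with Rnft1 on the opposite strand), and Pax6, a transcription factor of all endocrine islet cells (−0.28, SE 0.12, adjusted p = 0.151).

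Matches to the seed were then sought in the longest annotated 3′ UTR of 19999 genes on mm9, of which 11.2% held a match to bases 2 to 8 and 3.32% one that was also followed by A. Among the downregulated reported targets, Phactr1 and Irs1 held 1 match each, without the A. Igf1r and Prkcb held none in annotated 3′ UTRs of 197 and 841 bases. Of 568 tested genes with the longer match, 42 were downregulated and 36 upregulated, 7.39 and 6.34% against 4.55 and 6.07% of all genes. Sites of 6 of the downregulated ones, chosen for their low fold change, are shown together with those of 2 downregulated reported targets. They are sequences that miR-7 could pair with, and the direction of these genes was set by the choice. Each line gives 16 bases of the mRNA strand upstream in lower case and the match, with its A, in capitals.

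Pdx1 (chr5:148088679-148088702, plus strand): attggaaggagatgatGTCTTCCA
Ero1lb (chr13:12700418-12700441, plus strand): cccctctgaatgcctaGTCTTCCA
Mlph (chr1:92847592-92847615, plus strand): ccagtgagcatcagggGTCTTCCA
Slc4a7 (chr14:15632110-15632133, plus strand): tttgtaggggtaaggtGTCTTCCA
Doc2b (chr11:75582943-75582966, minus strand): atccctgaacagtcccGTCTTCCA
Celsr1 (chr15:85730143-85730166, minus strand): ctgagggagcccagagGTCTTCCA
Psme3 (chr11:101184508-101184531, plus strand): acttttattcctctccGTCTTCCA
Dnajc5 (chr2:181284582-181284605, plus strand): gagggaactgggccccGTCTTCCA

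Mlph, melanophilin, an effector of the vesicle GTPase Rab27a, had 3 matches and 6.05, 5.89 and 4.95 CPM in the Wt and 0.96, 0.325 and 0.894 CPM in the Tg7 libraries (log2 fold change −2.91, SE 0.45, adjusted p = 0.00109). Slc4a7, a sodium bicarbonate cotransporter, had 158, 148 and 132 CPM in the Wt and 64.1, 46.3 and 45.4 CPM in the Tg7 libraries (log2 fold change −1.49, SE 0.30, adjusted p = 0.00684), and the membrane protein gene Tmem229b had 124, 80.1 and 83.6 CPM in the Wt and 37.3, 34.7 and 24.7 CPM in the Tg7 libraries (log2 fold change −1.57, SE 0.20, adjusted p = 3.23e-04). Their groups did not overlap. Doc2b, a calcium sensor of vesicle fusion, went from 10.6, 8.4 and 9.2 to 5.34, 4.94 and 2.48 CPM (log2 fold change −1.15, adjusted p = 0.0176, called in 4 of 6). Celsr1, a cadherin of planar cell polarity, had a log2 fold change of −1.33 (adjusted p = 0.0373, called in 1 of 6). Pdx1 and Ero1lb are described with the β-cell genes.

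As a class, genes with a match had a slightly lower median than those without. Of 1896 tested genes with a match 144 were downregulated (7.59%) and 95 upregulated (5.01%), against 557 (4.45%) and 839 (6.71%) of 12507 without one, with median log2 fold changes of −0.04 and 0.04. The genes with a Wt level of at least 5 CPM, a minimum that retains genes high in Wt islets, were then compared by their medians alone. The median log2 fold change was −0.11 with and −0.04 without a match, a difference of −0.068 with a range of −0.053 to −0.083 over the other settings tried. It was −0.077 with no minimum level and −0.069 with the minimum set on the mean of all 6 libraries, both chosen after seeing the data. Among the 222 genes with several matches the median was −0.17. The longer match did not go with a lower median. It was −0.09 for 450 genes with the match followed by A and −0.11 for 1089 genes with a match without it. Genes with a match had longer 3′ UTRs, with a median of 2317 against 1110 bases, and longer 3′ UTRs had lower medians also without a match, from 0.01 for UTRs of up to 500 bases to −0.09 for those over 4000 bases. The shortest class went the other way, with medians of 0.05 for 58 genes with a match and 0.01 without one. The medians with and without a match were −0.08 and −0.03 for UTRs of over 500 to 1000 bases, −0.08 and −0.04 up to 2000 bases, −0.11 and −0.09 up to 4000 bases and −0.18 and −0.09 above that.

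Insulin mRNA was lower in every Tg7 library. Ins2 (ENSMUSG00000000215, chromosome 7, 149864561 to 149885415) had 113920, 69474 and 65989 CPM in the Wt and 12679, 21898 and 9740 CPM in the Tg7 libraries, a 5.63-fold lower level (log2 fold change −2.49, SE 0.37, adjusted p = 9.39e-04), and Ins1 (ENSMUSG00000035804, chromosome 19, 52338813 to 52339946) had 45353, 31169 and 28442 CPM in the Wt and 9361, 15235 and 5729 CPM in the Tg7 libraries (log2 fold change −1.79, SE 0.38, adjusted p = 0.00931). The highest Tg7 library remained below the lowest Wt library for both genes. The coding sequences of the 2 genes are much alike, so reads may have been divided between them with some error. In whole islets, fewer β-cells and less mRNA per β-cell cannot be told apart.

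Of the 18 genes for granule proteins and prohormone processing, 5 were downregulated and 1 upregulated (27.8 and 5.56% against 4.55 and 6.07% of all genes). Their median log2 fold change was −0.20, and 4, 4, 3, 4, 4 and 3 were down with each library left out in turn. The convertase Pcsk1, which cleaves proinsulin, had 371, 389.9 and 419 CPM in the Wt and 152, 101 and 111 CPM in the Tg7 libraries (log2 fold change −1.70, SE 0.29, adjusted p = 0.00253), and the granule peptide precursor Vgf had 272, 279 and 288 CPM in the Wt and 123.3, 149 and 97.2 CPM in the Tg7 libraries (log2 fold change −1.18, SE 0.29, adjusted p = 0.0188, called in 3 of 6). Both were lower in every Tg7 library. Pcsk1n, which encodes an inhibitor of Pcsk1, was upregulated instead (log2 fold change 0.57, SE 0.16, adjusted p = 0.0385, called in 0 of 6). Iapp, the amyloid peptide that is secreted with insulin, and the zinc transporter Slc30a8 of the insulin granule were not called. Their log2 fold changes were −0.21 (SE 0.21, adjusted p = 0.575) and −0.38 (SE 0.13, adjusted p = 0.0777), and these 2 genes were chosen for naming after their values were seen.

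**Figure D2:**
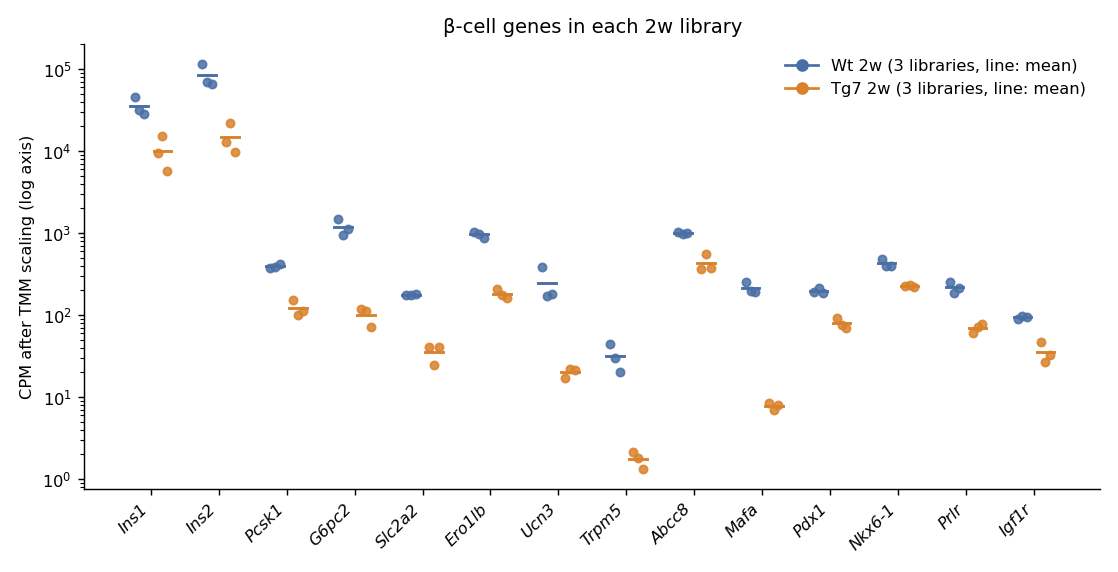
Level of 14 β-cell genes in each 2w library, in CPM after TMM scaling on a log axis, with Wt in blue and Tg7 in orange, points for the 3 libraries and a line for their mean. For each of the 14 genes all 3 Tg7 libraries lie below all 3 Wt libraries, and the gap is widest for Mafa, where the Tg7 values lie between 6.95 and 8.48 CPM. All 14 were taken from the downregulated genes, and members of the same lists that rose or were not called are not shown.

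Genes of glucose sensing and β-cell maturity fell together. Of 18 tested, 15 were downregulated and 1 upregulated, 83.3% against 4.55% of all genes, with a median of −1.42, and 13 or 14 were downregulated with any single library left out. G6pc2, the glucose-6-phosphatase subunit that reverses glucose phosphorylation (ENSMUSG00000005232, chromosome 2, 69049130 to 69065898), had 1477, 951 and 1121 CPM in the Wt and 118, 111 and 72.4 CPM in the Tg7 libraries, an 11.8-fold lower level (log2 fold change −3.56, SE 0.21, adjusted p = 1.28e-06). Slc2a2, the glucose transporter GLUT2, had 173, 176 and 181 CPM in the Wt and 40.7, 24.7 and 40.6 CPM in the Tg7 libraries (log2 fold change −2.32, SE 0.30, adjusted p = 2.86e-04). In neither of these genes did the groups overlap.

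Ucn3, urocortin 3, a marker of mature β-cells that stimulates δ-cells (ENSMUSG00000044988, chromosome 13, 3939934 to 3944595), had 382, 169.9 and 180.2 CPM in the Wt and 16.97, 22.0 and 21.4 CPM in the Tg7 libraries (log2 fold change −3.60, SE 0.31, adjusted p = 1.24e-05). Wt library 1 stood above the other Wt libraries here, and without it the gene was still called. Trpm5, a calcium-activated cation channel, had 44.6, 29.9 and 20.2 CPM in the Wt and 2.13, 1.82 and 1.34 CPM in the Tg7 libraries (log2 fold change −4.16, SE 0.34, adjusted p = 8.93e-06). It shares exon sequence with Tssc4 on the opposite strand, and whether reads were counted by strand was not stated, so a part of its reads may come from that gene. Ero1lb, the ER oxidase of β-cells that supplies disulphide bonds to proinsulin (ENSMUSG00000057069, chromosome 13, 12658150 to 12701793), fell from 1035, 977 and 867 to 209, 173 and 159.8 CPM (log2 fold change −2.41, SE 0.18, adjusted p = 5.63e-06). It holds 2 seed matches, of which the longer is shown above.

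The subunits of the ATP-sensitive potassium channel, which closes when glucose is metabolised, fell together. Abcc8, the sulphonylurea receptor, had 1020, 981 and 1007 CPM in the Wt and 361, 549.7 and 377 CPM in the Tg7 libraries (log2 fold change −1.23, SE 0.17, adjusted p = 4.75e-04), and Kcnj11, its pore, had 146, 154 and 134 CPM in the Wt and 72.3, 73.7 and 54.3 CPM in the Tg7 libraries (log2 fold change −1.12, SE 0.16, adjusted p = 7.40e-04). Their log2 fold changes differed by less than the SE of either. Sytl4 (granuphilin), which docks granules, and Ffar1, the receptor for long-chain fatty acids, were 2 further members, named after their values were seen, with log2 fold changes of −2.42 (SE 0.25, adjusted p = 4.53e-05) and −3.03 (SE 0.55, adjusted p = 0.00337). The 1 upregulated gene was Tmem27, the β-cell membrane protein collectrin, from 425, 424 and 379 to 553, 646 and 811 CPM (log2 fold change 0.71, SE 0.16, adjusted p = 0.0105, called in 4 of 6).

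Among 21 transcription factors of β-cells and their precursors, 4 were downregulated and 1 upregulated, 19.05 and 4.76% against 4.55 and 6.07% of all genes. The other 16 were not called. Mafa, which activates the insulin gene in mature β-cells (ENSMUSG00000047591, chromosome 15, 75577273 to 75578352), had 254, 199 and 189 CPM in the Wt and 8.48, 6.95 and 7.95 CPM in the Tg7 libraries, a 27.4-fold lower level (log2 fold change −4.78, SE 0.40, adjusted p = 1.02e-05). The Tg7 libraries of this gene differed little from each other. Pdx1, which directs pancreas formation and β-cell function (ENSMUSG00000029644, chromosome 5, 148081535 to 148089584), had 189, 214 and 185 CPM in the Wt and 92.8, 76.1 and 70.2 CPM in the Tg7 libraries (log2 fold change −1.30, SE 0.21, adjusted p = 0.00149), and Nkx6-1 had 487, 391 and 397 CPM in the Wt and 225, 231 and 221 CPM in the Tg7 libraries (log2 fold change −0.91, SE 0.13, adjusted p = 5.03e-04). The precursor factor Insm1 was also downregulated (log2 fold change −0.72, adjusted p = 0.0133, called in 4 of 6). Mlxipl, the glucose-responsive factor ChREBP, was not called (−0.11, SE 0.21, adjusted p = 0.779). The median of the list was −0.13 with TMM factors and 0.04 with library size alone.

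Disallowed genes, which are expressed in most tissues but kept low in β-cells, were higher in Tg7 islets. All 23 had a log2 fold change above 0, with a median of 0.81, and 10 were upregulated (43.5% against 6.07% of all genes) and none downregulated. The count depended on single libraries, with 1 called without Wt library 3, 2 without Wt library 1, 4 without Tg7 library 3, 5 without Wt library 2 and 7 without Tg7 library 1. Tgm2, transglutaminase 2, was the 1 gene of the list called in all 6 fits, from 10.7, 12.2 and 12.9 to 32.0, 23.9 and 34.9 CPM (log2 fold change 1.34, SE 0.22, adjusted p = 0.00165), and its exons overlap those of Rprd1b on the opposite strand. Ldha, lactate dehydrogenase A, had 34.3, 35.7 and 29.3 CPM in the Wt and 56.6, 51.4 and 86.9 CPM in the Tg7 libraries (log2 fold change 0.98, SE 0.27, adjusted p = 0.0342, called in 2 of 6). Oat, ornithine aminotransferase, had 23.02, 31.5 and 23.9 CPM in the Wt and 48.7, 40.4 and 48.4 CPM in the Tg7 libraries (log2 fold change 0.81, SE 0.21, adjusted p = 0.0232, called in 2 of 6). Neither of these overlapped between groups, and Tg7 library 3 was highest for Ldha. Igfbp4 and Pdgfra, a growth factor binding protein and a receptor of mesenchymal cells, were highest in Tg7 library 3 and Tg7 library 1, with 80.996, 100.3 and 205 CPM and 17.1, 1.62 and 5.56 CPM against 45.7, 67.3 and 42.7 and 1.19, 2.21 and 1.06 CPM in Wt islets (called in 3 and 3 of 6).

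Of 11 tested markers of endocrine progenitors and of dedifferentiation, 3 were upregulated, 27.3% against 6.07% of all genes (1, 2, 1, 2, 2 and 2 with each library left out in turn). Neurog3, the factor that starts endocrine differentiation, had 5.52, 8.69 and 6.07 CPM in the Wt and 14.6, 9.74 and 15.3 CPM in the Tg7 libraries (log2 fold change 0.98, SE 0.27, adjusted p = 0.034, called in 2 of 6). Reads of 2010107G23Rik on the opposite strand overlap it. Myc, a growth regulator, had 11.3, 12.1 and 10.2 CPM in the Wt and 18.8, 19.9 and 21.7 CPM in the Tg7 libraries (log2 fold change 0.85, SE 0.19, adjusted p = 0.0111, called in 5 of 6), and the tetraspanin gene Cd81 was higher by 0.64 on the log2 scale (SE 0.16, adjusted p = 0.0194, called in 2 of 6). Sox9 and Aldh1a3, named after their values were seen, were higher in Tg7 islets by 1.03 and 1.09 on the log2 scale and were not called (adjusted p = 0.0929 and 0.207).

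The highest fold changes belonged to genes with low levels in Wt islets. Jakmip2, which encodes a Janus kinase and microtubule interacting protein (ENSMUSG00000024502, chromosome 18, 43691062 to 43847427), had 0.297, 0.295 and 0.106 CPM in the Wt and 8.38, 7.66 and 7.75 CPM in the Tg7 libraries (log2 fold change 5.09, SE 0.32, adjusted p = 1.64e-06). C1ql3, a secreted C1q-like protein of neurons, had 0.297, 0.221 and 0.372 CPM in the Wt and 9.28, 8.38 and 6.01 CPM in the Tg7 libraries (log2 fold change 4.67, SE 0.40, adjusted p = 1.24e-05). The Tg7 values of both were of the same size in all 3 libraries. Cpb2, the plasma carboxypeptidase that slows fibrin breakdown, had 4.75, 3.17 and 2.77 CPM in the Wt and 51.8, 58.9 and 39.3 CPM in the Tg7 libraries (log2 fold change 3.81, SE 0.25, adjusted p = 2.05e-06), and Rasgef1a, an activator of Ras, had 3.38, 2.73 and 1.92 CPM in the Wt and 20.97, 26.4 and 18.7 CPM in the Tg7 libraries (log2 fold change 3.04, SE 0.21, adjusted p = 2.62e-06). Cngb1, a subunit of a cyclic nucleotide-gated channel, Gabrq, a GABA receptor subunit, and Prkg2, a cGMP-dependent kinase, rose from levels below 1.02 CPM to between 5.07 and 9.48 CPM, by 4.48, 3.38 and 3.10 on the log2 scale.

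Lrg1, C4b, Lcn2 and Il1rn, which encode secreted proteins, were also among the 12 highest genes, and Tg7 library 1 was highest for Lrg1, C4b and Il1rn. Lrg1 had 0.237, 0.958 and 0.319 CPM in the Wt and 33.5, 3.05 and 3.73 CPM in the Tg7 libraries (log2 fold change 4.78, SE 0.92, adjusted p = 0.00496), and the complement gene C4b had 2.25, 3.68 and 1.7 CPM in the Wt and 40.4, 7.92 and 11.97 CPM in the Tg7 libraries (log2 fold change 3.001, SE 0.53, adjusted p = 0.00271). Lcn2, lipocalin 2, was even across the Tg7 libraries, with 0.771, 0.663 and 0.213 CPM in the Wt and 6.03, 5.39 and 6.36 CPM in the Tg7 libraries (log2 fold change 3.44, SE 0.50, adjusted p = 7.24e-04). Il1rn, the antagonist of the interleukin 1 receptor, had 1.6, 0.368 and 0.851 CPM in the Wt and 10.03, 6.37 and 3.23 CPM in the Tg7 libraries (log2 fold change 2.77, SE 0.54, adjusted p = 0.00557). These genes were called with any single library left out, Tg7 library 1 included, but the share of lymphocyte RNA in Tg7 library 1 moves with Lrg1, C4b and Il1rn and its part in their values was not tested.

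At the other end, Ovol2, a transcriptional repressor that maintains epithelial identity (ENSMUSG00000037279, chromosome 2, 144130911 to 144157882), had 13.3, 13.6 and 10.2 CPM in the Wt and 0.213, 0.0649 and 0.0993 CPM in the Tg7 libraries (log2 fold change −6.50, SE 0.65, adjusted p = 3.81e-05). This was the lowest fold change among the called genes named here. Olfm4, the secreted protein olfactomedin 4, had 42.5, 27.8 and 29.8 CPM in the Wt and 0.32, 1.43 and 0.695 CPM in the Tg7 libraries (log2 fold change −5.39, SE 0.43, adjusted p = 6.86e-06). Plk3, a polo-like kinase of stress responses, had 123.5, 74.0 and 96.7 CPM in the Wt and 10.2, 11.5 and 7.2 CPM in the Tg7 libraries (log2 fold change −3.35, SE 0.27, adjusted p = 7.47e-06), and Nnat, neuronatin, an imprinted gene that aids processing of preproinsulin, had 60.9, 107 and 92.7 CPM in the Wt and 12.3, 9.81 and 3.82 CPM in the Tg7 libraries (log2 fold change −3.33, SE 0.37, adjusted p = 8.41e-05). In all 4 the groups were far apart. Cox6a2, the muscle-type subunit of cytochrome oxidase, had 27.1, 4.42 and 5.32 CPM in the Wt and 0.107, 0.455 and 0.348 CPM in the Tg7 libraries (log2 fold change −5.34, SE 0.81, adjusted p = 0.00102), with Wt library 1 well above the other Wt libraries. Bambi-ps1 (log2 fold change −3.84) is annotated as a pseudogene, and its reads may include those of its parent gene.

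The second block of downregulated genes encoded the protein-folding machinery of the ER. These chaperones and degradation factors are the targets of the ATF6 and XBP1 branches of the unfolded protein response, while another branch acts through PERK and ATF4 on amino acid and stress genes. Of 24 chaperone and ER-associated degradation (ERAD) genes, 20 were downregulated (83.3% against 4.55% of all genes) and none upregulated, with a median of −0.98. The count was 14 to 20 with a library left out and 13 with library size alone. Of 15 PERK and ATF4 targets none was called, against 10.6% of all genes. Their median was −0.04, but 0.88 without Wt library 1, and with library size alone and upper-quartile factors it was 0.13 and 0.01.

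Hspa5, the main chaperone BiP of the ER lumen (ENSMUSG00000026864, chromosome 2, 34627490 to 34632051), had 1912, 2441 and 2088 CPM in the Wt and 1270, 931 and 799.6 CPM in the Tg7 libraries (log2 fold change −1.10, SE 0.22, adjusted p = 0.00684). Hsp90b1, its partner GRP94, had 1603, 2004 and 2277 CPM in the Wt and 1069, 962 and 872 CPM in the Tg7 libraries (log2 fold change −1.02, SE 0.20, adjusted p = 0.00571). They were 2.15- and 2.03-fold lower, with no overlap. Creld2, a folding factor induced by ER stress (ENSMUSG00000023272, chromosome 15, 88650076 to 88657111), had 153, 233 and 212 CPM in the Wt and 63.8, 61.5 and 54.6 CPM in the Tg7 libraries (log2 fold change −1.73, SE 0.16, adjusted p = 2.73e-05), and Manf, a secreted survival factor of the ER, had 309, 368 and 319.9 CPM in the Wt and 144, 142 and 118 CPM in the Tg7 libraries (log2 fold change −1.30, SE 0.13, adjusted p = 4.59e-05). These 2 had the smallest p values of the list. The co-chaperone Dnajb11 (log2 fold change −1.06, adjusted p = 1.26e-04) and the ERAD lectin Edem1 (−0.94, adjusted p = 3.71e-04) completed the members named by rule, and Sdf2l1 and Hyou1, named after their values were seen, had −2.002 and −1.49. Herpud1, an ERAD gene named after its values were seen, was the only member above 0 (0.09, SE 0.29).

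For Atf4 and Asns the extremes were single libraries. Atf4 had 495, 235 and 238 CPM in the Wt and 165, 281 and 279 CPM in the Tg7 libraries (adjusted p = 0.362), and asparagine synthetase, Asns, had 314, 83.6 and 93.8 CPM in the Wt and 56.7, 183 and 169 CPM in the Tg7 libraries (adjusted p = 0.773). In both, Wt library 1 was highest and Tg7 library 1 lowest, and of the other 4 libraries the Tg7 ones lay above the Wt ones. The same 2 libraries were the extremes for Ddit3, the factor CHOP, named after its values were seen, at 67.7 and 11.9 CPM.

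**Figure D3:**
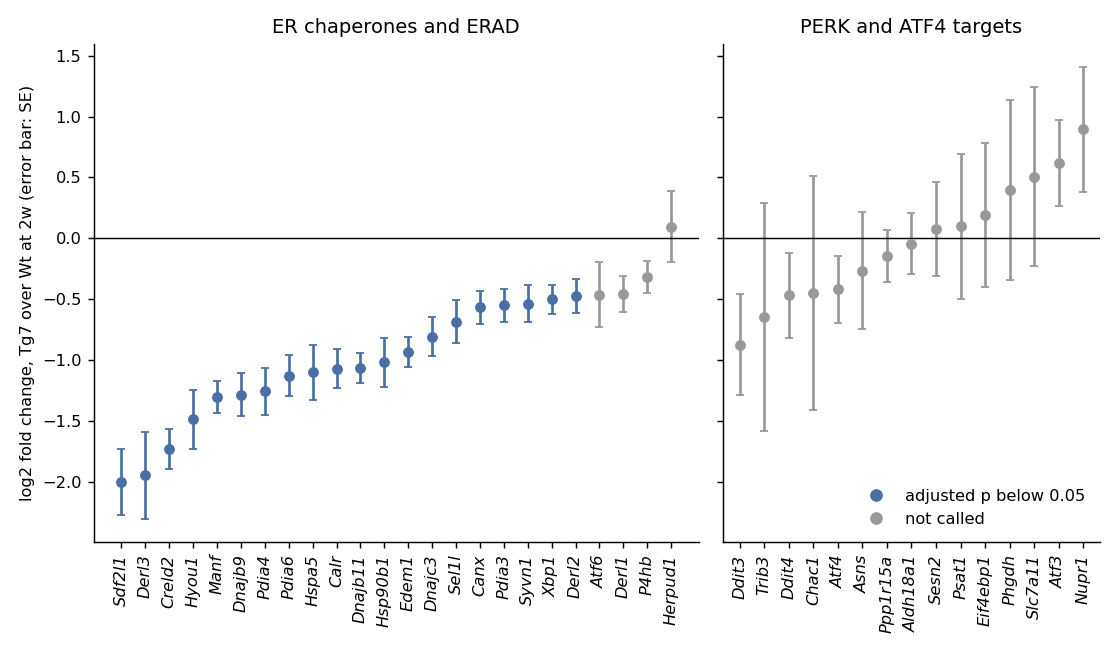
Log2 fold change of Tg7 over Wt at 2w for 24 ER chaperone and ERAD genes (left) and 15 PERK and ATF4 targets (right), with the standard error as bars and called genes in blue. On the left 20 of 24 genes are blue and lie between −2.002 (Sdf2l1) and −0.47 (Derl2), whereas on the right no gene is called and the values lie on both sides of 0.

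The chaperone promoters were then searched for an element in common. The ER stress element, CCAAT and CCACG spaced by 9 bases of any kind, to which ATF6 binds, was searched on both strands of RefSeq promoters, 250 bases before to 50 after the start site, on GRCm38.p6. It was found in 35 of 27025 promoters (0.130%), in 9 of the 20 chaperone and ERAD promoters that the table holds (45%) and in none of the 14 of PERK and ATF4 targets. The matches of the most abundant chaperones and of Creld2 are printed with the fixed letters in capitals, as they show the element that these downregulated genes share.

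Hspa5 (chr2:34772025-34772043, same strand as the gene): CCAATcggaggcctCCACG
Hsp90b1 (chr10:86705638-86705656, same strand as the gene): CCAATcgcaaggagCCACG
Hsp90b1 (chr10:86705533-86705551, opposite strand): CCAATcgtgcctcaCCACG
Creld2 (chr15:88819520-88819538, opposite strand): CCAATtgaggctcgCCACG

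The element of Hspa5 begins 65 bases before the start site. All 9 chaperone genes with the element were downregulated, as were 9 of the 11 without it. Of 9 tested genes outside the list that hold it, none was downregulated and 1 was upregulated, with a median of −0.17. The list was made of targets of the ATF6 and XBP1 branches, so its share of the element was in part set by that choice. The letters are a description of the promoters and were not tested for binding.

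In the other steps of the secretory route a smaller share of genes was called. Of 39 genes for ER translocation and vesicle coats, 8 were downregulated (20.5% against 4.55% of all genes) and none upregulated, with a median of −0.29. With each library left out in turn, 5, 5, 5, 8, 5 and 6 were downregulated, and 4 with library size alone. Sec61a1, the channel through which proteins enter the ER, had 358, 423 and 419 CPM in the Wt and 243, 211 and 216 CPM in the Tg7 libraries (log2 fold change −0.84, SE 0.11, adjusted p = 4.35e-04), and Sec23b, a coat protein of vesicles leaving the ER, had 149, 196 and 171 CPM in the Wt and 108, 75.7 and 90.1 CPM in the Tg7 libraries (log2 fold change −0.91, SE 0.16, adjusted p = 0.00318). The signal peptidase subunits Spcs2 and Sec11c fell by 0.78 and 0.77 on the log2 scale (adjusted p = 0.00151 and 0.00124). Copa, of the coat for transport back to the ER, was not called (−0.16, SE 0.14). Of 22 genes of exocytosis, 4 were downregulated, 18.2% against 4.55% of all genes (3, 5, 2, 4, 4 and 3 with each library left out in turn, 2 with library size alone). Syt4, a synaptotagmin of maturing granules, had 152, 98.0 and 134 CPM in the Wt and 47.0, 56.3 and 47.0 CPM in the Tg7 libraries (log2 fold change −1.36, SE 0.18, adjusted p = 3.93e-04), and Rab3a, a GTPase on the granule surface, had 75.2, 77.6 and 80.3 CPM in the Wt and 45.8, 60.1 and 48.1 CPM in the Tg7 libraries (log2 fold change −0.60, SE 0.12, adjusted p = 0.00639). Of 22 subunits of the V-ATPase, which acidifies granules, 4 were downregulated and 1 upregulated, 18.2 and 4.55% against 4.55 and 6.07% of all genes (2, 3, 2, 2, 3 and 2 down with each library left out in turn). The downregulated ones were led by Atp6v1a and Atp6v1e1 of the catalytic sector (−0.94 and −0.93, adjusted p = 0.00185 and 0.00104).

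Several receptors that tune insulin secretion fell. Of 26 islet G protein-coupled receptors, 9 were downregulated (34.6% against 4.55%; 8 or 9 with a library left out) and 1 upregulated. Ffar3, a receptor of short-chain fatty acids (log2 fold change −3.23, SE 0.29, adjusted p = 1.65e-05), had 32.8, 32.9 and 30.8 CPM in the Wt and 3.95, 2.47 and 3.78 CPM in the Tg7 libraries. Adra2a, the α2-adrenoceptor that restrains secretion, had 122, 115 and 98.7 CPM in the Wt and 39.3, 38.7 and 28.4 CPM in the Tg7 libraries (log2 fold change −1.65, SE 0.24, adjusted p = 8.03e-04), and Adora1, the inhibitory adenosine receptor, had 36.1, 36.2 and 48.2 CPM in the Wt and 14.4, 12.2 and 12.4 CPM in the Tg7 libraries (log2 fold change −1.63, SE 0.16, adjusted p = 3.20e-05). Gcgr, the glucagon receptor, had 48.6, 60.9 and 50.1 CPM in the Wt and 14.99, 9.48 and 19.02 CPM in the Tg7 libraries (log2 fold change −1.87, SE 0.22, adjusted p = 1.41e-04). So receptors that inhibit and receptors that stimulate β-cells were both among those that fell. The PACAP receptor Adcyap1r1 was the 1 upregulated member, from 1.78, 2.36 and 2.13 to 5.82, 5.98 and 3.87 CPM (log2 fold change 1.32, SE 0.29, adjusted p = 0.0102, called in 5 of 6). Prlr, the prolactin receptor that drives growth of the β-cell mass (ENSMUSG00000005268, chromosome 15, 10106993 to 10303504), had 252, 187 and 216 CPM in the Wt and 59.8, 72.2 and 78.8 CPM in the Tg7 libraries (log2 fold change −1.64, SE 0.18, adjusted p = 1.10e-04), and Ddc, which completes serotonin synthesis, had 252, 233 and 207 CPM in the Wt and 132, 131 and 139.9 CPM in the Tg7 libraries (log2 fold change −0.78, SE 0.12, adjusted p = 0.00113).

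Of 62 potassium channel genes, 4 were downregulated (6.45% against 4.55% of all genes) and 8 upregulated (12.9% against 6.07%), with the downregulated share near that of all genes (4, 4, 4, 5, 5 and 4 down and 2, 4, 3, 9, 6 and 7 up with each library left out in turn). Kcnj12, an inward rectifier, fell to near absence, with 13.5, 11.8 and 11.598 CPM in the Wt and 0.747, 0.195 and 0.745 CPM in the Tg7 libraries (log2 fold change −4.395, SE 0.42, adjusted p = 2.91e-05). Kcnh1, of a voltage-gated family, fell by 2.39 on the log2 scale (adjusted p = 6.26e-04). Kcnn4, a calcium-activated channel, rose from 0.712, 0.295 and 0.479 to 3.79, 3.44 and 2.98 CPM (log2 fold change 2.74, SE 0.44, adjusted p = 0.00132). Of 32 calcium and sodium channel genes, 4 were upregulated (12.5% against 6.07% of all genes) and none downregulated (2, 3, 1, 5, 2 and 3 up with each library left out in turn). Scn3a, the α subunit of a sodium channel, had 42.5, 44.6 and 57.2 CPM in the Wt and 85.5, 90.9 and 97.7 CPM in the Tg7 libraries (log2 fold change 0.92, SE 0.14, adjusted p = 9.44e-04). Cacna1d, an L-type calcium channel of β-cells, was not called (−0.07, SE 0.14). Of the cAMP genes 3 rose and 3 fell among 29, 10.3% each against 6.07% up and 4.55% down of all genes. Pde1a, a calmodulin-dependent phosphodiesterase, had 5.04, 5.08 and 5.001 CPM in the Wt and 16.4, 12.6 and 19.8 CPM in the Tg7 libraries (log2 fold change 1.69, SE 0.23, adjusted p = 5.51e-04), and Pde10a, another phosphodiesterase, had 37.3, 34.5 and 43.6 CPM in the Wt and 16.1, 20.2 and 16.3 CPM in the Tg7 libraries (log2 fold change −1.14, SE 0.23, adjusted p = 0.0066).

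In central metabolism few respiratory chain genes were called. Of 78 nuclear genes of the respiratory chain, 2 were downregulated and none upregulated (against 4.55 and 6.07% of all genes), and of the 13 mitochondrially encoded genes none was called, with mt-Co1 at 9189, 7984 and 8496 CPM in the Wt and 8098, 10281 and 9171 CPM in the Tg7 libraries. Glycolysis had 3 genes down and 2 up among 23 (13.04 and 8.70%), and the citrate cycle with its refilling reactions 3 and 3 among 32 (9.38% each). Pfkfb2, which makes the activator of phosphofructokinase, had 189, 211 and 229.9 CPM in the Wt and 119.9, 112 and 107 CPM in the Tg7 libraries (log2 fold change −0.89, SE 0.15, adjusted p = 0.00198), and Aldoc, an aldolase, had 8.01, 7.95 and 8.03 CPM in the Wt and 12.9, 14.2 and 22.999 CPM in the Tg7 libraries (log2 fold change 1.06, SE 0.21, adjusted p = 0.00597). Fh1, fumarate hydratase, had 182, 136 and 138 CPM in the Wt and 63.3, 71.9 and 79.8 CPM in the Tg7 libraries (log2 fold change −1.09, SE 0.14, adjusted p = 3.90e-04), while the mitochondrial malic enzyme Me3 rose from 3.98, 5.82 and 4.47 to 8.06, 12.8 and 12.6 CPM (log2 fold change 1.23, SE 0.23, adjusted p = 0.00398). Pcx, pyruvate carboxylase, the enzyme that refills the cycle in β-cells, fell by 0.72 (adjusted p = 0.018, called in 2 of 6).

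Some genes of sterol synthesis fell. Of 23 genes of cholesterol synthesis and uptake, 5 were downregulated, 21.7% against 4.55% of all genes (4 or 5 with a library left out, 3 with library size alone), and none upregulated. Sqle, squalene epoxidase, had 147, 125 and 160.3 CPM in the Wt and 73.6, 66.2 and 58.8 CPM in the Tg7 libraries (log2 fold change −1.12, SE 0.13, adjusted p = 1.41e-04). Sc4mol (also named Msmo1), a sterol oxidase, had 61.2, 44.8 and 53.0 CPM in the Wt and 18.7, 23.9 and 20.9 CPM in the Tg7 libraries (log2 fold change −1.33, SE 0.16, adjusted p = 1.41e-04), and Fdps and Lss of the same route fell by 0.78 and 0.70 (adjusted p = 0.00315 and 0.00946). In fatty acid synthesis 4 genes fell and 2 rose among 16 (2, 2, 1, 4, 2 and 2 down with each library left out in turn, 1 with library size alone). Elovl5 had 158, 112 and 116 CPM in the Wt and 76.1, 79.2 and 68.8 CPM in the Tg7 libraries (log2 fold change −0.78, SE 0.14, adjusted p = 0.00278), and Dgat2, which makes triglycerides, had 7.24, 7.14 and 6.33 CPM in the Wt and 12.8, 12.6 and 23.4 CPM in the Tg7 libraries (log2 fold change 1.24, SE 0.22, adjusted p = 0.00323).

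Of 27 antioxidant genes 3 rose and 2 fell, 11.1 and 7.41% against 6.07 and 4.55% of all genes. The metallothioneins Mt1 and Mt2, which bind zinc and copper, had the lowest fold changes, with 535, 58.6 and 129 CPM in the Wt and 15.8, 33.5 and 34.0 CPM in the Tg7 libraries for Mt1 (log2 fold change −3.12, SE 0.70, adjusted p = 0.0116, called in 5 of 6; Mt2 in 5). Wt library 1 was far above the other Wt libraries, and the Wt library lowest for Mt2, at 31.9 CPM, lay close to the highest Tg7 value of 21.8 CPM. Prdx4, a peroxiredoxin of the ER, rose from 18.4, 25.1 and 20.5 to 49.996, 38.7 and 40.6 CPM (log2 fold change 1.02, SE 0.16, adjusted p = 0.00113). Txnip, the thioredoxin inhibitor, was not called, with Tg7 library 1 at 734.5 CPM and the other Tg7 libraries at 237 and 203 CPM (log2 fold change 1.41, SE 0.44, adjusted p = 0.0553).

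Genes of growth gave a mixed picture. Ccnd2, cyclin D2, the main G1 cyclin of β-cells, had 774, 583 and 699 CPM in the Wt and 376, 392 and 323 CPM in the Tg7 libraries (log2 fold change −0.91, SE 0.17, adjusted p = 0.00336), and Ccnd1 fell by less (−0.53, adjusted p = 0.01, called in 5 of 6). These were the 2 genes called among 15 of the G1 phase, 13.3% down against 4.55% of all genes. Of 38 genes of S, G2 and M phase, 36 were higher in Tg7 islets, with a median of 0.75. Only 1 was called, 2.63% against 6.07% upregulated of all genes. This was Mcm7 (log2 fold change 0.77, SE 0.13, adjusted p = 0.00264), which shares exon sequence with Cops6 and Ap4m1. Mki67, the proliferation marker, had 24.7, 45.8 and 35.8 CPM in the Wt and 87.3, 27.8 and 76.9 CPM in the Tg7 libraries (adjusted p = 0.121). Tg7 library 2 lay within the Wt range, and without it 11 of the 38 genes were called. Of 14 genes of the Bcl2 family, which governs apoptosis, none was called, against 10.6% of all genes, and 11 had a log2 fold change above 0 (median 0.25).

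In the IGF system 4 genes were called in each direction among 16 (3, 2, 2, 3, 2 and 2 down and 1, 2, 1, 3, 3 and 1 up with each library left out in turn). Besides Igf1r and Irs1, the RNA-binding proteins Igf2bp1 and Igf2bp2 were downregulated (log2 fold changes −2.28 and −0.77, called in 2 and 0 of 6). Igfbp7 had 384, 349.7 and 373 CPM in the Wt and 565, 481 and 632 CPM in the Tg7 libraries (log2 fold change 0.60, SE 0.12, adjusted p = 0.00588). H19, an imprinted long noncoding RNA next to Igf2 (ENSMUSG00000000031, chromosome 7, 149761434 to 149764048), had 3.68, 3.61 and 2.5 CPM in the Wt and 23.9, 8.77 and 24.99 CPM in the Tg7 libraries (log2 fold change 2.56, SE 0.41, adjusted p = 0.00144), and Igf2 itself had 7.42, 9.21 and 8.41 CPM in the Wt and 20.2, 10.5 and 20.4 CPM in the Tg7 libraries (log2 fold change 1.03, SE 0.27, adjusted p = 0.0246, called in 1 of 6). In both, Tg7 library 2 was lowest among the Tg7 libraries. Of 80 ribosomal protein genes 77 had a log2 fold change above 0, with a median of 0.35, and 4 were upregulated, a share of 5.0% against 6.07% of all genes (7, 0, 0, 3, 0 and 0 with each library left out in turn and 41 with library size alone).

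The circadian clock was among the signalling groups with the highest share of called genes. Of 19 clock genes, 7 were upregulated and 4 downregulated (57.9% called against 10.6% of all genes). The upregulated genes included output factors and repressors of the loop. Dbp, a D-box activator (ENSMUSG00000059824, chromosome 7, 52960458 to 52965525), had 29.5, 27.1 and 27.3 CPM in the Wt and 78.0, 101 and 83.0 CPM in the Tg7 libraries (log2 fold change 1.64, SE 0.13, adjusted p = 8.63e-06), and Nr1d1, the repressor REV-ERBα (ENSMUSG00000020889, chromosome 11, 98629246 to 98636647), had 24.98, 26.3 and 30.0 CPM in the Wt and 72.4, 71.2 and 60.3 CPM in the Tg7 libraries (log2 fold change 1.33, SE 0.13, adjusted p = 2.95e-05). Per3 had 30.9, 33.7 and 41.0 CPM in the Wt and 74.1, 99.0 and 70.3 CPM in the Tg7 libraries (log2 fold change 1.204, SE 0.16, adjusted p = 3.90e-04), and Tef and Bhlhe40 rose by 0.78 and 0.98 (adjusted p = 0.00278 and 0.00146). All 3 Tg7 libraries stood above all Wt libraries in each of these, and 6 of the 7 upregulated genes were called with any library left out. The downregulated genes were Clock, Cry1, Nfil3 and Per1 (log2 fold changes −0.73, −0.80, −0.65 and −0.52), which were called in at most 2 of the 6 fits each (0, 2, 0, 1, 1 and 1 genes down with each library left out in turn, none with library size alone). Reads of Dbp overlap those of Sphk2, and reads of Nr1d1 those of Thra, on the opposite strand. The hour at which islets were collected was not stated, and its part was not tested.

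Some interferon and cytokine genes rose. Of 33 genes of the interferon response and MHC class I, 7 were upregulated (21.2% against 6.07% of all genes) and none downregulated. With each library left out in turn, 4, 3, 3, 3, 4 and 8 were upregulated. Ifit3, an antiviral effector, had 3.09, 2.43 and 1.28 CPM in the Wt and 7.68, 10.3 and 8.94 CPM in the Tg7 libraries (log2 fold change 1.99, SE 0.28, adjusted p = 6.26e-04), Gbp2, a guanylate-binding protein, had 14.2, 10.97 and 9.2 CPM in the Wt and 28.7, 20.5 and 19.7 CPM in the Tg7 libraries (adjusted p = 0.00402), and the MHC class I gene H2-T23 had 47.9, 44.5 and 47.2 CPM in the Wt and 84.9, 93.3 and 92.0 CPM in the Tg7 libraries (log2 fold change 0.95, SE 0.12, adjusted p = 2.89e-04). The classical genes H2-K1 and H2-D1 were not called (−0.25 and −0.05, SE 0.16 and 0.11), and reads may be divided between these near-identical genes with error. The interferon element, GAAA repeated after 2 bases of any kind, was searched in the same way and was in 13 of 26 promoters of this list (50%), in 5 of the 6 that belonged to upregulated genes, and in 3.49% of all promoters. Of 307 tested genes outside the list with the element, 19 were upregulated and 12 downregulated. Both shares lay near the background of 6.07% up and 4.55% down, so the higher share of upregulated genes was seen within the list only. As the list was made of genes of the interferon response, its share of the element was in part set by that choice.

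Of 27 NF-κB and cytokine genes, 8 were upregulated and 2 downregulated, 29.6 and 7.41% against 6.07 and 4.55% of all genes. With each library left out in turn, 3, 3, 2, 3, 6 and 6 were upregulated. Icam1, an adhesion molecule for leukocytes, had 9.61, 6.92 and 7.45 CPM in the Wt and 28.8, 14.1 and 19.1 CPM in the Tg7 libraries (log2 fold change 1.37, SE 0.28, adjusted p = 0.00738), and Lif, leukaemia inhibitory factor, had 3.92, 3.61 and 4.15 CPM in the Wt and 18.4, 10.7 and 7.7 CPM in the Tg7 libraries (log2 fold change 1.65, SE 0.34, adjusted p = 0.00736). The chemokine Ccl2 rose from 2.49, 2.06 and 1.22 to 12.6, 5.33 and 4.67 CPM (log2 fold change 1.97, SE 0.45, adjusted p = 0.0128, called in 5 of 6). In all 3 genes Tg7 library 1, which held the most lymphocyte RNA, was highest. In contrast Il1b, interleukin 1β, fell from 5.99, 4.79 and 3.25 to 1.23, 1.82 and 0.596 CPM (log2 fold change −1.96, SE 0.43, adjusted p = 0.0102), and Lifr, the receptor of Lif, from 105, 90.5 and 95.2 to 60.7, 49.4 and 47.8 CPM (log2 fold change −0.88, SE 0.13, adjusted p = 0.00104).

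Markers of other islet cells differed in how they moved. The summed level of 9 α-cell markers overlapped between the groups, at 35680 to 48293 CPM in Wt and 45114 to 82440 CPM in Tg7 islets. Only Gc, the vitamin D-binding protein of α-cells, was called, with 112, 107 and 98.7 CPM in the Wt and 196, 209 and 229 CPM in the Tg7 libraries (log2 fold change 0.99, SE 0.13, adjusted p = 2.86e-04), while glucagon, Gcg, was not (0.46, SE 0.28, adjusted p = 0.319). Somatostatin, Sst, had 1997, 1926 and 1974 CPM in the Wt and 2151, 2394 and 1394 CPM in the Tg7 libraries and was not called (0.01, SE 0.27). The 4 PP and epsilon markers summed to 4282 to 6487 CPM in Wt and 7721 to 11472 CPM in Tg7 islets without overlap. Ppy, pancreatic polypeptide, had 3894, 2123 and 3178 CPM in the Wt and 6732, 7333 and 4726 CPM in the Tg7 libraries (log2 fold change 1.03, SE 0.31, adjusted p = 0.0475, called in 1 of 6), and Pyy, peptide YY, 2575, 2140 and 2409 CPM in the Wt and 4079, 4125 and 2977 CPM in the Tg7 libraries, which was not called (log2 fold change 0.65, SE 0.29, adjusted p = 0.171). Acinar markers summed to 19.4 to 20.7 CPM in Wt and 32.2 to 52.3 CPM in Tg7 islets. Of 12 tested, 2 were upregulated, 16.7% against 6.07% of all genes. Of these 2, the enzyme gene Cpb1 had no count in any Wt library and 2.77, 0.909 and 0 CPM in the Tg7 libraries (called in 1 of 6). The part of these shifts in other results was not tested.

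**Figure D4:**
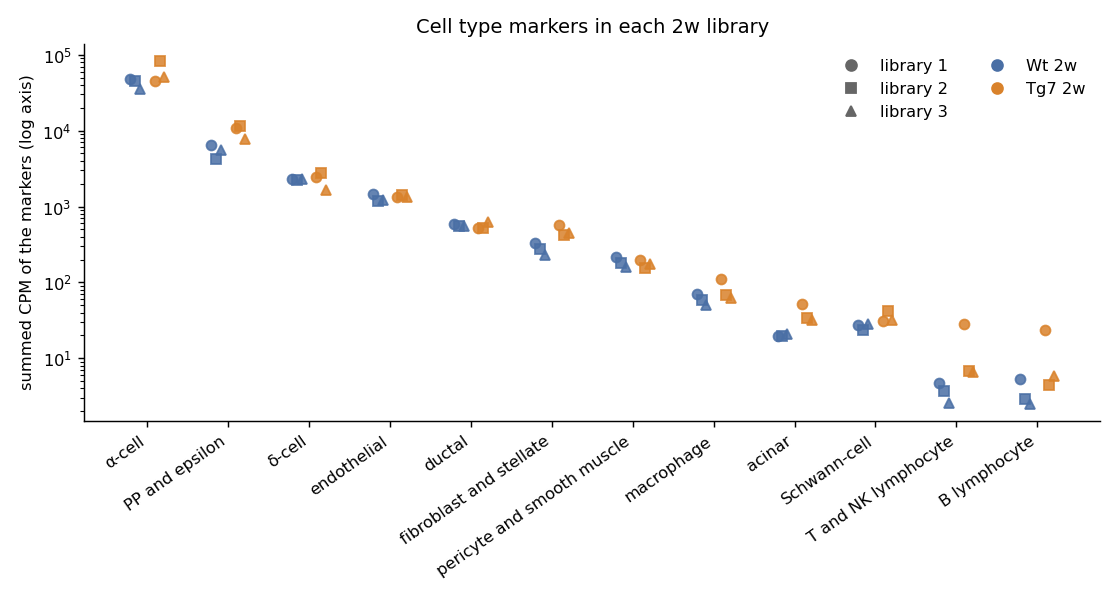
Summed level of the markers of 12 cell types in each 2w library, in CPM on a log axis, with Wt in blue, Tg7 in orange and the library number as the symbol. The fibroblast and stellate, PP and epsilon, and acinar sums of all Tg7 libraries lie above those of all Wt libraries, the endothelial and pericyte sums overlap, and Tg7 library 1 (circle) stands apart for T and NK lymphocytes at 28.4 CPM and for B lymphocytes at 23.3 CPM.

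Markers of fibroblasts, endothelium, pericytes and macrophages showed an uneven pattern. In RNA of whole islets the cells that express a marker gene cannot be told. Of 8 fibroblast and stellate markers, 7 were upregulated (87.5% against 6.07% of all genes). Their sum was 229 to 331.5 CPM in Wt and 427.2 to 571.3 CPM in Tg7 islets. The number called was 1 without Wt library 3, 3 without Tg7 library 1, 4 without Wt library 2 and 5 without Wt library 1. Col1a1, the main chain of fibrillar collagen, had 49.2, 43.8 and 32.4 CPM in the Wt and 107, 87.4 and 83.6 CPM in the Tg7 libraries (log2 fold change 1.15, SE 0.20, adjusted p = 0.0023), and Dcn, the matrix proteoglycan decorin, had 7.54, 4.57 and 3.78 CPM in the Wt and 26.6, 10.9 and 9.79 CPM in the Tg7 libraries (log2 fold change 1.58, SE 0.38, adjusted p = 0.0181, called in 3 of 6). Pdgfrb, which pericytes share, was not called (0.14, SE 0.14). None of 12 endothelial and none of 7 pericyte and smooth muscle markers was called, against 10.6% of all genes. Kdr, the VEGF receptor of endothelium, had 247, 198 and 206 CPM in the Wt and 184, 218 and 206 CPM in the Tg7 libraries, and the pericyte gene Rgs5 had 139.6, 103 and 96.3 CPM in the Wt and 111, 94.5 and 96.0 CPM in the Tg7 libraries. Of 11 macrophage markers 1 was called, 9.09% upregulated against 6.07% of all genes. It was the lysozyme gene Lyz2, with 3.38, 6.41 and 1.86 CPM in the Wt and 62.9, 8.25 and 13.2 CPM in the Tg7 libraries and Tg7 library 1 highest (log2 fold change 2.88, SE 0.67, adjusted p = 0.014, called in 3 of 6). C1qa had 24.4, 20.3 and 16.97 CPM in the Wt and 11.58, 20.9 and 15.1 CPM in the Tg7 libraries and was not called.

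Matrix genes rose in part together with these markers. Of 27 matricellular and TGFβ target genes 26 were above 0 and 9 were upregulated, 33.3% against 6.07% of all genes (4, 3, 2, 4, 8 and 8 with each library left out in turn). In this group 1 gene, the crosslinking enzyme Loxl2, was downregulated (log2 fold change −0.95, SE 0.20, adjusted p = 0.00898). Thbs3, a thrombospondin (ENSMUSG00000028047, chromosome 3, 89019102 to 89030759), had 32.9, 33.4 and 40.1 CPM in the Wt and 95.2, 105 and 107 CPM in the Tg7 libraries (log2 fold change 1.53, SE 0.22, adjusted p = 7.24e-04), and Bgn, biglycan, had 41.7, 41.1 and 34.8 CPM in the Wt and 95.8, 66.1 and 84.3 CPM in the Tg7 libraries (log2 fold change 1.07, SE 0.21, adjusted p = 0.00512). Thbs3 shares exon sequence with Mtx1 on the opposite strand. Of 32 collagen genes 7 were upregulated and 1 downregulated, 21.9 and 3.13% against 6.07 and 4.55% of all genes (5, 4, 3, 6, 8 and 7 up with each library left out in turn). The downregulated gene was Col6a6, from 55.9, 66.6 and 47.6 to 14.3, 15.8 and 12.02 CPM (log2 fold change −2.01, SE 0.29, adjusted p = 7.97e-04). Col8a2 had 3.86, 3.54 and 6.76 CPM in the Wt and 13.2, 14.2 and 16.9 CPM in the Tg7 libraries (log2 fold change 1.64, SE 0.25, adjusted p = 0.0011), and the basement membrane chains Col4a1 and Col4a2, the most abundant, were not called (0.02 and 0.02, SE 0.16 and 0.12). Of 43 tested proteases and inhibitors of the matrix 9 were upregulated and 1 downregulated, 20.9 and 2.33% against 6.07 and 4.55% of all genes (3, 6, 3, 5, 6 and 5 up with each library left out in turn). Those upregulated included Mmp14, which activates other proteases, from 21.9, 20.1 and 20.8 to 38.2, 31.2 and 31.5 CPM (log2 fold change 0.68, SE 0.14, adjusted p = 0.0076), and Adam23 (1.07, adjusted p = 0.00209). The fibroblast sum moves with these groups, and its part in them was not tested.

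Within the TGFβ superfamily 8 of 48 genes were upregulated and 1 downregulated, 16.7 and 2.08% against 6.07 and 4.55% of all genes. With each library left out in turn, 6, 5, 4, 6, 6 and 7 were upregulated. Gdf10 and Bmp3, ligands of the family, had 1.72, 1.69 and 0.958 CPM in the Wt and 3.31, 4.35 and 4.77 CPM in the Tg7 libraries and 2.73, 3.24 and 3.14 CPM in the Wt and 8.96, 7.08 and 6.21 CPM in the Tg7 libraries (log2 fold changes 1.52 and 1.29, SE 0.29 and 0.24, adjusted p = 0.00519 and 0.00405). Ltbp2, a protein of elastic fibres related to the TGFβ-binding proteins, had 6.17, 5.16 and 4.95 CPM in the Wt and 27.9, 13.6 and 13.9 CPM in the Tg7 libraries (log2 fold change 1.76, SE 0.35, adjusted p = 0.00544). Acvr1c, the receptor ALK7, fell from 15.6, 23.8 and 19.8 to 8.16, 5.2 and 8.74 CPM (log2 fold change −1.42, SE 0.29, adjusted p = 0.00662). Among angiogenic factors Pgf, placental growth factor (ENSMUSG00000004791, chromosome 12, 86507589 to 86518246), had 15.3, 17.4 and 17.3 CPM in the Wt and 52.9, 59.3 and 60.4 CPM in the Tg7 libraries (log2 fold change 1.79, SE 0.14, adjusted p = 5.56e-06), whereas Vegfa, the main such factor of β-cells, was lower and not called (−0.50, SE 0.19, adjusted p = 0.114). Of 31 integrins and laminins 5 rose and 1 fell, 16.1 and 3.23% against 6.07 and 4.55% of all genes (2, 3, 2, 3, 6 and 3 up with each library left out in turn). Itgb3, a receptor for vitronectin, had 9.2, 7.07 and 8.99 CPM in the Wt and 25.9, 17.3 and 22.1 CPM in the Tg7 libraries (log2 fold change 1.37, SE 0.20, adjusted p = 8.73e-04). Of 30 tested Wnt genes 3 rose and 1 fell (10.0 and 3.33% against 6.07 and 4.55% of all genes). The one that fell was the receptor Fzd7, from 18.3, 16.9 and 16.3 to 9.12, 7.86 and 7.9 CPM (log2 fold change −1.05, SE 0.19, adjusted p = 0.00314). Of 21 Notch genes 1 was called, an upregulated one (4.76% against 6.07%).

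Of 38 genes of epithelial junctions and polarity 7 were downregulated and 2 upregulated, 18.4 and 5.26% against 4.55 and 6.07% of all genes. With each library left out in turn, 4, 3, 3, 6, 4 and 3 were downregulated. The splicing regulators Esrp1 and Esrp2 of epithelial cells fell, Esrp1 from 136, 153 and 136 to 83.6, 80.7 and 77.4 CPM (log2 fold change −0.81, SE 0.14, adjusted p = 0.00243) and Esrp2 by 0.94 (adjusted p = 0.0143, called in 3 of 6), although the exons of Esrp2 overlap those of Nfatc3 on the opposite strand, which has more reads, so that its value is uncertain. E-cadherin, Cdh1, and Epcam were not called (−0.39 and −0.21, SE 0.15 and 0.11, adjusted p = 0.102 and 0.251). Every Tg7 library lay below every Wt library for both, and the groups did not overlap for 35.9% of all tested genes. None of 10 EMT transcription factors was called, against 10.6% of all genes. Of these 10, 9 had a log2 fold change above 0, with a median of 0.30 against 0.03 for all genes. Of 62 guidance genes 6 rose and 1 fell, 9.68 and 1.61% against 6.07 and 4.55% of all genes (3, 3, 3, 6, 4 and 4 up with each library left out in turn), and Sema6a, a semaphorin, had 9.97, 11.8 and 11.01 CPM in the Wt and 23.4, 20.7 and 22.5 CPM in the Tg7 libraries (log2 fold change 1.02, SE 0.18, adjusted p = 0.00315). Of 15 neuronal genes 2 fell and 2 rose, 13.3% each against 4.55% down and 6.07% up of all genes. Syp, synaptophysin of neuroendocrine vesicles, had 377, 373 and 375 CPM in the Wt and 208, 199 and 189 CPM in the Tg7 libraries (log2 fold change −0.92, SE 0.16, adjusted p = 0.00235), and Tubb3, neuronal tubulin, 29.7, 19.4 and 19.4 CPM in the Wt and 6.78, 10.8 and 6.21 CPM in the Tg7 libraries (log2 fold change −1.53, SE 0.31, adjusted p = 0.00684).

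The effect of the transgene at 2w was last set against that at 12w by a test of the difference between them in the same fit. The difference passed for 188 of 15961 genes (1.18%), and 83 of them were also called at 2w. In 53 of these 83 the estimate was larger in size at 12w and in 30 at 2w, 10 up and 20 down. Of the 30, 10 were also called at 12w, 9 of them in the opposite direction. The number of differences fell to 87 without Wt 2w library 2, 91 without Wt 2w library 3 and 113 without Tg7 2w library 3.

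**Figure D5:**
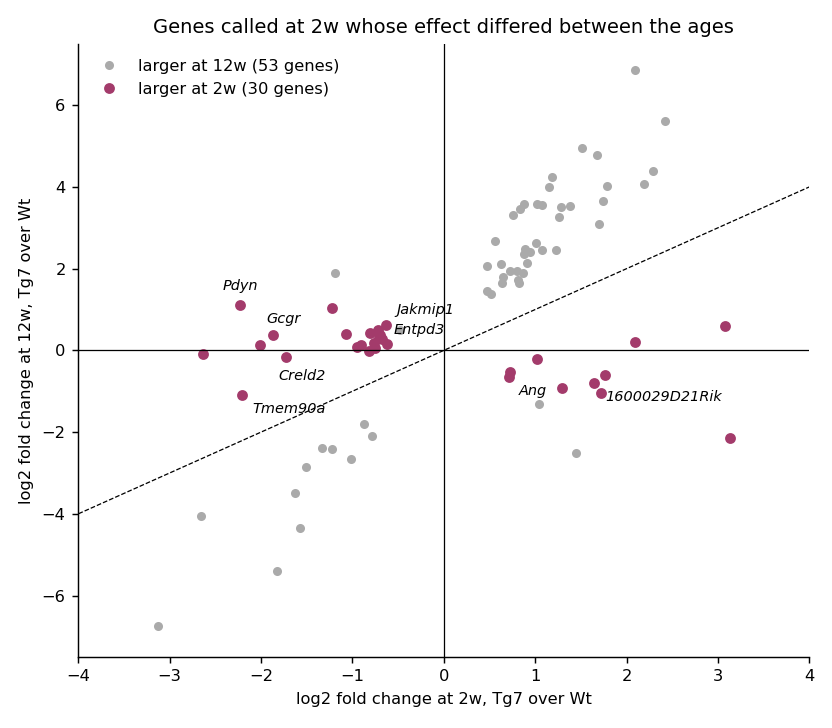
Log2 fold change of Tg7 over Wt at 12w (vertical) against that at 2w (horizontal) for the 83 genes called at 2w whose effect differed between the ages, with equal effects on the dashed line. The 30 genes in colour had the larger estimate at 2w and the 53 grey genes had the larger estimate at 12w.

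The genes with a larger effect at 2w included a chaperone and a receptor described above. The log2 fold change of Creld2 was −1.73 at 2w and −0.16 at 12w (difference 1.57, SE 0.23, adjusted p = 0.00363), and that of Gcgr was −1.87 and 0.37 (difference 2.24, SE 0.30, adjusted p = 0.00222). At 12w neither was called. Entpd3, an enzyme of the β-cell surface that degrades extracellular ATP, had −0.71 and 0.31 (difference 1.02, SE 0.16, adjusted p = 0.00791). Tmem90a, which encodes a vesicle membrane protein, fell at both ages, by 2.21 at 2w and 1.08 at 12w (adjusted p of the difference = 0.00782), and its 2w levels were 82.2, 63.6 and 63.5 CPM in the Wt and 15.5, 15.7 and 14.01 CPM in the Tg7 libraries. Some effects changed sign. Ang, angiogenin, had 29.5, 17.01 and 18.2 CPM in the Wt and 33.9, 62.5 and 62.7 CPM in the Tg7 libraries at 2w, a log2 fold change of 1.30, and −0.92 at 12w (difference −2.21, SE 0.34, adjusted p = 0.00596), but it shares exons with Rnase4 on the same strand, which has more reads. Pdyn, prodynorphin, the precursor of opioid peptides, had −2.23 and 1.12, and Jakmip1 −0.64 and 0.62. The transcript 1600029D21Rik went from 1.64 to −0.80 (adjusted p of the difference = 0.00114), with 5.81, 4.86 and 4.95 CPM in the Wt and 17.3, 14.9 and 16.7 CPM in the Tg7 libraries at 2w.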

How the data were processed

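Per the labels and methods, the authors prepared libraries with an NEB Ultra II kit, sequenced paired-end 100 bp reads on a HiSeq2500, trimmed them with Trimmomatic, aligned them to mm9 with TopHat2 2.0.11 and deposited raw read counts per gene from featureCounts, whose strand setting and version are unstated. Of 37991 genes, 15961 passed filterByExpr with a minimum count of 10 and a minimum total of 15, and all 12 libraries were fitted with 4 group means (edgeR 4.0.16, R 4.3.3; TMM factors, quasi-likelihood test, Benjamini-Hochberg adjustment over all tested genes, threshold 0.05). SE was obtained from the F statistic and the fold change. Scripts were tested on simulated data. The 66 gene lists and the named genes were chosen with earlier results of these data known. Named were, per list, up to 4 called genes per direction with the lowest adjusted p and the 2 most abundant members, all miR-7 lists, the 12 highest and 12 lowest genes called with any library left out (at least 5 CPM in the higher group), 8 genes with a larger effect at 2w and 8 genes with a seed match followed by A; others are marked as chosen after their values were seen. Replicate numbers do not pair the libraries. Depth sets the counting error only. Coordinates are mm9 for genes and 3′ UTRs (GENCODE vM1) and GRCm38.p6 for promoters (RefSeq), and the builds were not mixed. Alternatives were DESeq2 1.42.0, the 2w libraries alone, other scalings and filters, a replicate block, a test against a 1.2-fold change and leaving out each library. Some genes of these lists are counted but not reported by name here.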

Additional observations from a re-analysis of the deposited data

Results flagged for a closer look

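The effect of the transgene differed between the ages for 19 of the genes named, by the test of the difference within the fit of all 12 libraries (edgeR, adjusted p from 5.13e-04 to 0.0437). Values are differences on the log2 scale, with the 2w effect subtracted from the 12w effect. In 10 genes the estimate was larger in size at 2w. Of these, Creld2 (1.575), Gcgr (2.24), Entpd3 (1.02), Sec11c (0.957) and Tmem90a (1.126) were downregulated at 2w and were nearer to 0, or above it, at 12w. Pdyn (3.347) and Jakmip1 (1.253) were downregulated at 2w and upregulated at 12w, and 1600029D21Rik (−2.446) and Ang (−2.21) the reverse. Ltbp2 (−2.375) was upregulated at 2w and was not called at 12w.

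In the other 9 genes the estimate was larger at 12w. They include matrix genes, with Col1a1 at 2.846, Col4a1 at 1.034 and Col4a2 at 1.275, of which Col4a1 and Col4a2 had log2 fold changes of 0.02 and 0.02 at 2w. The ligands Gdf10 (3.444) and Bmp3 (2.217), the receptor Pdgfrb (1.603) and the tetraspanin Cd81 (1.015) were likewise higher at 12w. Adora1 (−1.866) and Lifr (−0.9223) were downregulated at both ages and lower at 12w.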

How the results depend on the processing

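Against 1695 genes called at 2w (969 up, 726 down), DESeq2 called 2985 on the 2w libraries alone (1525 up, 1460 down) and 1488 up with all 12 libraries. EdgeR on the 2w libraries alone called 1190 down. Library size alone gave 1670 up and 317 down, and the test against a 1.2-fold change 909 in all (544 up, 365 down). With 1 library left out the number called ranged from 754 (without Wt library 3) to 1700 (without Tg7 library 1), that of upregulated genes from 377 to 1060, and that of downregulated genes from 377 to 640. Replicate numbers are shared between the groups, but same-numbered libraries did not deviate together (correlations −0.0214, −0.167 and −0.0343), so a block by replicate number is given only as a setting. With it 1221 genes were called, 590 of them up. The 188 differences between the ages became 566 with DESeq2, 347 with library size alone, 420 with no filter and 502 with the block, and 87 to 181 with a library left out. The cause of these shifts was not tested.

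Of 152 called genes named by the rule, 109 passed under all settings but the test against a 1.2-fold change, for which single genes were not followed, 34 lost the call with a library left out and 32 in another alternative, and none changed direction. At the depth of these libraries, genes with few counts, such as the precursor loci Mir7-2 and Mir7b, could not be compared.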
